A study of Mus musculus with 32 samples.

Results

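Chemokines are small secreted proteins that guide the movement of leukocytes, and a macrophage that meets bacterial lipopolysaccharide (LPS) is one of their richest sources. They fall into families by the spacing of their first cysteines (CXC, CC, CX3C and XC) and act through G protein-coupled receptors, so that the ligands of one receptor tend to attract the same kind of cell. In macrophages LPS acts through Toll-like receptor signalling to NF-kB and AP-1, which drive early chemokine genes such as Cxcl1 and Cxcl2, and through secreted interferon, which drives later ones such as Cxcl9 and Cxcl10. The chemokine ligand genes of mouse bone marrow-derived macrophages were taken from one RNA-seq table as every gene whose symbol is Ccl or Cxcl followed by a number, together with Cx3cl1, Xcl1, Pf4 and Ppbp. This gave 42 of the 25067 genes in the table.

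Macrophages were grown from the marrow of male mice of 6 to 12 weeks, either wild type (BMDM-WT) or lacking Nur77 in the whole body (BMDM-Nur77-KO), and were left untreated (0 h) or given LPS at 100 ng/ml for 1, 5 or 18 h. The study's methods describe a knockout in all tissues, made by crossing C57Bl6/J mice carrying CMV-Cre with mice carrying a loxP-flanked Nr4a1 allele and breeding the Cre out again, with wild-type littermates as controls. The labels call the knockout genotype cre. Each of the 8 groups had 4 libraries, plated as 4 replicates from a number of mice that is not given in the sources used here, so every p-value measures the spread between these libraries, which may be technical.

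Levels are given as CPM, which are counts relative to the library total, scaled by the trimmed mean of M-values (TMM), as mean ± SD with n = 4 unless each library is listed, and in RPKM (CPM per kilobase of transcript) where genes are compared with each other. A gene was tested if its mean RPKM, before TMM scaling, reached 1 in one or more groups. Of the 42 chemokine genes, 24 passed, among 11279 genes tested. A difference was called when the adjusted p was below 0.05 (edgeR quasi-likelihood test, Benjamini-Hochberg over all tested genes) and the log2 fold change was beyond 0.58 between genotypes or beyond 1 between times. A call on the interaction, which is the log2 change with LPS in BMDM-Nur77-KO minus that in BMDM-WT, needed the adjusted p alone.

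The libraries held 8742362 to 15780926 counts, and the counts on chemokine genes made up a mean of 0.484% of them in BMDM-WT before LPS, 1.06% at 1 h, 1.73% at 5 h and 0.835% at 18 h. In BMDM-Nur77-KO the shares were 0.569%, 1.02%, 1.64% and 1.07%. The genotypes did not overlap before LPS, when the libraries ranged from 0.466% to 0.496% in BMDM-WT and from 0.535% to 0.590% in BMDM-Nur77-KO. At 18 h they ranged from 0.753% to 0.877% in BMDM-WT and from 0.969% to 1.14% in BMDM-Nur77-KO, again without overlap. The share weighs abundant genes most. Before LPS, Ccl6 stood at 1527 CPM in BMDM-WT and 2097 CPM in BMDM-Nur77-KO, and Ccl9 at 1842 and 2078 CPM. Of the 24 genes tested for a difference, only 10 had a log2 fold change above 0 at that time. Nr4a1, which encodes Nur77, stood at 358 to 485 CPM in BMDM-WT after 1 h of LPS and at 146 to 243 CPM in BMDM-Nur77-KO, so its transcript was lower but present, and gene counts do not separate the deleted exons. All 8 macrophage markers checked, among them Adgre1, Csf1r and Lyz2, had counts in every group, at a summed level of 11065 to 18876 CPM. T and NK cell markers summed to 1.57 CPM or less and B cell markers to 4.76 CPM or less. Other lists were higher over all libraries, with neutrophil markers at 19.6 to 63.4 CPM and endothelial markers at 30.2 to 99.0 CPM. In bulk samples fewer cells of a type and less RNA per cell cannot be told apart.

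The 18 chemokine genes that were not tested were at or near zero. Of these, 10 had a count of 0 in every library, namely Ccl19, Ccl21a, Ccl21b, Ccl21c, Ccl21d, Ccl26, Ccl27b, Cxcl13, Cxcl15 and Cxcl17. The other 8 were Ccl1, Ccl11, Ccl20, Ccl27a, Cxcl5, Cxcl12, Ppbp and Xcl1, and the highest count of any of them in a library was 17. Most are chemokines of lymphoid organs, epithelium or stroma, such as Ccl19 and Ccl21, which guide T cells and dendritic cells to lymph nodes, and Cxcl13, which guides B cells. The Ccl21 and Ccl27 genes have near-identical copies on chromosome 4, and reads were kept only above a mapping quality limit, so a count of 0 there does not show that the copies were silent.

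The tested genes lie mostly in clusters (mm10). Chromosome 11 carries 10 of them, with Ccl2 (chr11:82035577-82037452), Ccl7, Ccl12 and Ccl8 in one cluster and Ccl5 (chr11:83525778-83530518), Ccl9, Ccl6, Ccl3 (chr11:83647843-83649378) and Ccl4 in another. Chromosome 5 carries 8, with Cxcl3, Cxcl1 (chr5:90891245-90893121) and Cxcl2 (chr5:90903899-90905938) beside Pf4, and Cxcl9, Cxcl10 (chr5:92346638-92348889) and Cxcl11 side by side. Ccl22 (chr8:94745684-94751388), Cx3cl1 and Ccl17 share a stretch of chromosome 8. The annotated spans of Ccl3 and Ccl4 overlap in RefSeq, and whether the counting used strand is not given in the sources used here, so reads in the shared stretch could be counted for both.

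The sequences just upstream of the start sites are shown for the genes on which the results below turn. RefSeq promoter sequences (GRCm38.p6, which is mm10), from 250 bases before to 50 bases after the start, were found for 17 of the 24 tested genes. The missing ones are Ccl2, Ccl4, Ccl5, Ccl7, Ccl24, Cxcl11 and Cxcl16. Each sequence is printed 5′ to 3′ on the strand of its gene and ends at the base before the start, with matches in capitals to an NF-kB site (by the usual consensus), to the AP-1 site TGANTCA, to the interferon-response core GAAANNGAA or to NBRE, the element bound by Nur77 as a monomer, all searched on both strands. For the neighbours Cxcl1, Cxcl2 and Cxcl3 the last 120 bases are printed (chr5:90891125-90891244, chr5:90903779-90903898 and chr5:90785981-90786100, plus strand), and the capitals are an NF-kB match.
Cxcl1: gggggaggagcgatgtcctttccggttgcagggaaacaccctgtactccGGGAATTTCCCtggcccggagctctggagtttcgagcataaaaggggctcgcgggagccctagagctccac
Cxcl2: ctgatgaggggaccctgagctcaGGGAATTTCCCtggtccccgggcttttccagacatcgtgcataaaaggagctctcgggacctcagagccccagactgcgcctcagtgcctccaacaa
Cxcl3: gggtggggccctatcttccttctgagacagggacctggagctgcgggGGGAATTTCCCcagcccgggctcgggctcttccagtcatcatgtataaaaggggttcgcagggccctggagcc
For the interferon-inducible Cxcl10 and Cxcl9 all 250 bases are printed (chr5:92348890-92349139 and chr5:92328080-92328329, minus strand). In Cxcl10 the capitals are, in order, an interferon-response core, an NF-kB match, another NF-kB match and an AP-1 match. In Cxcl9 they are an interferon-response core.
Cxcl10: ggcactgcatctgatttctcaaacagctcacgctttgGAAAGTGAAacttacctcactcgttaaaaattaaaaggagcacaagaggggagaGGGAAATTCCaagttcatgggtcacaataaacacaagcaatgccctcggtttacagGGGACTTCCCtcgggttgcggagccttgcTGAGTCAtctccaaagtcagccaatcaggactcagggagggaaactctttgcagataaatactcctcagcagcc
Cxcl9: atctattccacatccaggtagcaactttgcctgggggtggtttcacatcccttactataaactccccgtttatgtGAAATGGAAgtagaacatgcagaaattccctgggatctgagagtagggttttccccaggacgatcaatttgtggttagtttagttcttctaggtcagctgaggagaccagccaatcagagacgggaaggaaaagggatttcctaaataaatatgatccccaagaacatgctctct
For Ccl3 (chr11:83649379-83649498, minus strand) and Ccl22 (chr8:94745564-94745683, plus strand), which stood furthest above wild type at 18 h among the CC chemokines of moderate or high level, the last 120 bases are printed. Ccl3 holds an interferon-response core on the opposite strand, and Ccl22 holds no match.
Ccl3: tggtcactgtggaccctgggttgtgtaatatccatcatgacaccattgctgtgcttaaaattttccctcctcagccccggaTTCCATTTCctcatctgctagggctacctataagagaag
Ccl22: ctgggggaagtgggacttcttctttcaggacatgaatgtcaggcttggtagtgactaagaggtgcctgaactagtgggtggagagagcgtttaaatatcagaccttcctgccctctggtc

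The NF-kB match in Cxcl1, Cxcl2 and Cxcl3 is the same string, GGGAATTTCC, which together with its overlapping match on the other strand starts 71, 97 and 73 bases before the start. Of the 17 tested genes with a promoter, 5 held an NF-kB match (Ccl9, Cxcl1, Cxcl2, Cxcl3 and Cxcl10), against 4.51% of 32851 promoters. An AP-1 match stood in 4 (Ccl9, Ccl28, Cxcl9 and Cxcl10), against 7.81% of all promoters, and those of Ccl28 and Cxcl9 lay after the start. An interferon-response core stood in 4 (Ccl3, Cxcl9, Cxcl10 and Cxcl14), against 8.56%. NBRE was found in Ccl6 alone, 88 bases before the start, against 1.51% of all promoters. A match describes letters and not binding, and the motifs were not related to the expression values by any test.

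LPS raised most of the tested chemokine genes in wild-type macrophages. At 1 h against 0 h, 13 of the 24 were called higher and 0 lower, where 3.43% of all tested genes were called higher and 1.76% lower. At 5 h 19 were higher and 1 lower (all tested genes 15.7% and 18.0%), and at 18 h 12 were higher and 5 lower (13.1% and 14.3%). In BMDM-Nur77-KO, 12 genes were higher and 0 lower at 1 h (3.23% of all tested genes were higher and 1.30% lower). At 5 h 17 were higher and 1 lower (16.0% and 16.6%), and at 18 h 15 were higher and 4 lower (15.4% and 16.4%). Over the 24 genes the median log2 change in BMDM-WT was 1.87 at 1 h, 4.15 at 5 h and 1.21 at 18 h, where the medians of all tested genes were −0.03, −0.14 and −0.01. The gene called lower at 5 h in both genotypes was Ccl28, an epithelial chemokine, and its highest mean was 0.958 RPKM.

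The neutrophil-attracting CXC ligands came first. Cxcl1 and Cxcl2, both ligands of CXCR2, peaked at 1 h in both genotypes. In BMDM-WT the 4 libraries of Cxcl2 read 9.61, 9.86, 9.23 and 8.85 CPM before LPS and 2021, 2062, 1993 and 2139 CPM at 1 h, a log2 change of 7.77 (SE 0.11, adjusted p = 1.3e-30 by edgeR). It was back at 101 ± 12.6 CPM at 5 h and at 7.09 ± 0.756 CPM at 18 h. Cxcl1 went from 0.346 ± 0.231 CPM to 397 ± 30.0 CPM at 1 h and fell to 7.33 ± 2.36 CPM at 5 h. Cxcl3, the third member of the cluster, was scarce and later, with 0 to 2 counts before LPS and 10.5 ± 1.44 CPM at 5 h.

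**Figure D1:**
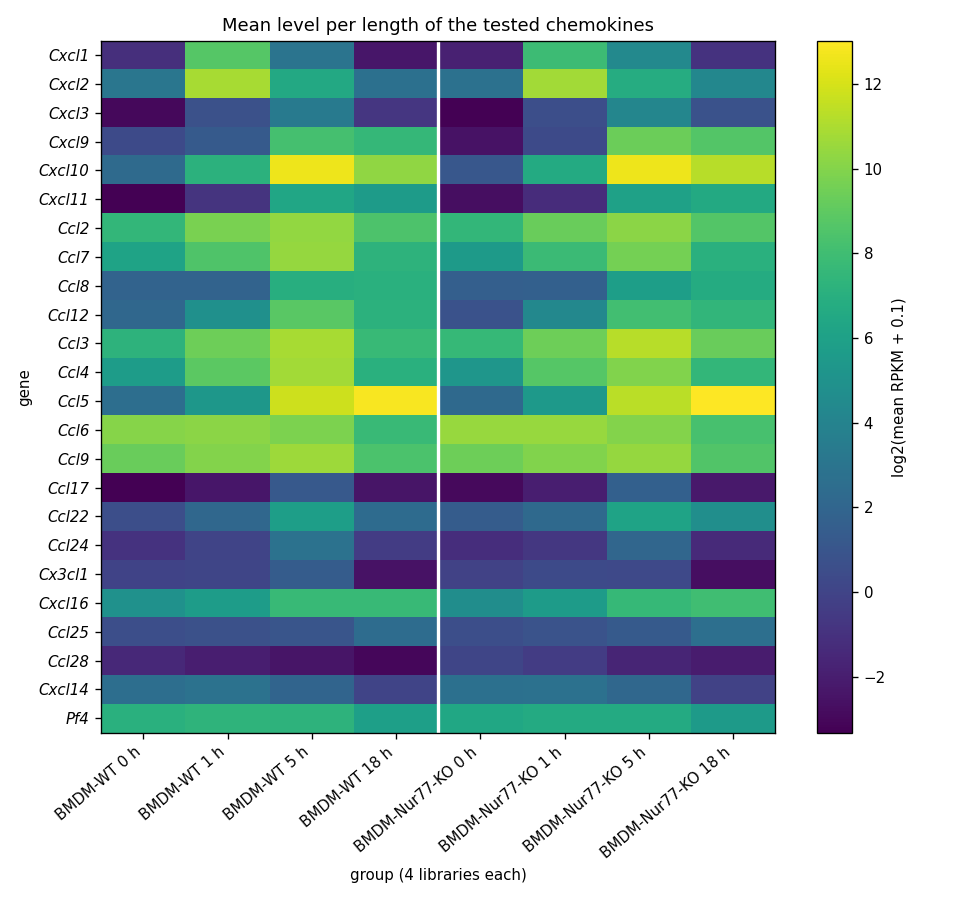
Mean level of each tested chemokine gene, as log2(RPKM + 0.1), in the 8 groups of 4 libraries, BMDM-WT on the left of the white line and BMDM-Nur77-KO on the right. Cxcl1 and Cxcl2 are brightest at 1 h, Cxcl10 at 5 h and Ccl5 at 18 h in both genotypes.

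The CXCR3 ligand genes Cxcl9, Cxcl10 and Cxcl11 were all called higher at 5 h in both genotypes. The products of Cxcl9 and Cxcl10 attract activated T cells and natural killer cells. Cxcl10 read 6685, 6683, 6856 and 6883 CPM at 5 h in BMDM-WT and 7194, 6607, 6541 and 6468 CPM in BMDM-Nur77-KO. It reached 6194 ± 98.5 RPKM at 5 h in BMDM-WT, the highest level of any chemokine gene at that time, from 4.96 ± 0.573 RPKM before LPS. The log2 change was 10.29 (SE 0.12, adjusted p = 2.4e-32 by edgeR). Cxcl9 rose from 3.47 ± 0.791 to 868 ± 17.0 CPM over the same 5 h. Cxcl11 had 0 counts in all 4 untreated BMDM-WT libraries and 121 to 135 CPM at 5 h, at least 613-fold higher when the untreated libraries are set to a floor of 3 counts each. Cxcl11 is listed under a RefSeq identifier for a non-coding RNA, so its counts do not show that a protein was made.

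Among the CC chemokines, Ccl5, which attracts T cells and monocytes, had its highest level at 18 h in both genotypes. In BMDM-WT its libraries read 3.51, 2.02, 3.33 and 3.55 CPM before LPS and 4236, 4264, 3355 and 4292 CPM at 18 h, when its 7588 ± 856 RPKM was the highest mean of any chemokine gene in BMDM-WT. It rose again between 5 and 18 h, by a log2 change of 1.09 in BMDM-WT (SE 0.18, adjusted p = 4.2e-06 by edgeR) and of 1.71 in BMDM-Nur77-KO (SE 0.18, adjusted p = 1.7e-09). Its neighbours Ccl3 and Ccl4, which also attract monocytes and T cells, peaked at 5 h and then fell. Ccl6 and Ccl9, ligands of CCR1, were high before LPS, at 1060 ± 58.3 and 613 ± 31.7 RPKM in BMDM-WT. They were the chemokine genes with the highest untreated RPKM, and Ccl6 was not called higher at any time after LPS.

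The 4 tested genes of the Ccl2 cluster, Ccl2, Ccl7, Ccl8 and Ccl12, were all called higher at 5 h in both genotypes. Ccl2, Ccl7 and Ccl12 encode monocyte-attracting ligands of CCR2. Ccl2 was already at 146 ± 30.7 CPM before LPS in BMDM-WT and reached 1058 ± 25.0 CPM. Ccl8 alone of the 4 did not move at 1 h, with 1.81 ± 0.573 CPM before LPS and 1.82 ± 0.401 CPM at 1 h, and then rose to 61.1 ± 4.65 CPM at 5 h. It also kept its level, at 66.8 ± 3.07 CPM at 18 h, when Ccl2, Ccl7 and Ccl12 had fallen in BMDM-WT.

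Between 1 and 5 h 15 genes were called higher and 2 lower in BMDM-WT (14.1% and 16.2% of all tested genes), and 14 higher and 3 lower in BMDM-Nur77-KO (15.1% and 16.0%). The genes that fell in both were Cxcl1 and Cxcl2, and in BMDM-Nur77-KO also Ccl28. Between 5 and 18 h most genes fell, with 2 higher and 18 lower in BMDM-WT (15.9% and 14.3%) and 2 higher and 16 lower in BMDM-Nur77-KO (14.3% and 14.3%). The 2 that rose were Ccl5 and Ccl25 in both genotypes. Ccl25, a gut and thymus chemokine, stayed low, at 5.75 ± 0.565 CPM in BMDM-WT at 18 h.

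Before LPS, 6 of the 24 genes differed between the genotypes, 2 higher in BMDM-Nur77-KO (Ccl22 and Ccl28) and 4 lower (Ccl12, Cxcl9, Cxcl10 and Pf4), where 2.38% of all tested genes were called higher and 2.44% lower. The median over the 24 was −0.26 against −0.03 over all tested genes. Cxcl10 read 4.88, 4.98, 5.60 and 6.24 CPM in BMDM-WT and 1.82, 1.96, 2.15 and 3.02 CPM in BMDM-Nur77-KO, and the fold change on the log2 scale was −1.27 (SE 0.13, adjusted p = 1.3e-08 by edgeR). Cxcl9 read 3.81, 2.28, 3.93 and 3.84 CPM in BMDM-WT and 0.273, 0.379, 0 and 0.159 CPM in BMDM-Nur77-KO, the last on 0 to 6 counts a library. Every knockout library lay below every wild-type library in both genes, as in 12.6% of all tested genes. Ccl12 ranged from 1.83 to 3.18 CPM in BMDM-WT and from 0.758 to 1.07 CPM in BMDM-Nur77-KO (log2 fold change −1.40, SE 0.22, adjusted p = 3.7e-05 by edgeR). The 7 T and NK cell markers summed to 0.623 to 1.38 CPM in BMDM-WT and to 0.126 to 0.455 CPM in BMDM-Nur77-KO before LPS, and the 10 neutrophil markers to 25.8 to 39.2 CPM and 35.4 to 43.8 CPM, with Ltf and S100a8 called higher in the knockout. The part of such cells in these differences was not tested.

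Pf4, the platelet chemokine CXCL4, was lower in the knockout at 0, 1 and 5 h. Its 4 libraries before LPS ranged from 75.3 to 88.7 CPM in BMDM-WT and from 47.1 to 53.2 CPM in BMDM-Nur77-KO (log2 fold change −0.66, SE 0.10, adjusted p = 2.2e-05 by edgeR). At 18 h it was at 34.8 ± 3.72 and 28.7 ± 2.78 CPM and was not called. The 7 platelet and megakaryocyte markers summed to 6.75 to 9.16 CPM in BMDM-WT before LPS and to 5.74 to 9.30 CPM in BMDM-Nur77-KO, ranges that overlapped. Gp9 and Gp6 had at most 1 count a library, and Gp1ba was at 4.31 ± 0.605 and 5.05 ± 0.765 CPM with no call. At 1 h the markers summed to 5.14 to 6.25 CPM in BMDM-WT and to 6.50 to 8.14 CPM in BMDM-Nur77-KO. They summed to 1.42 to 2.62 and 2.18 to 3.24 CPM at 5 h, with Gp1ba called higher in the knockout. The sums at 18 h were 2.52 to 4.40 and 1.34 to 3.03 CPM, with 1 of the 2 tested markers called lower in the knockout. The part of platelets or megakaryocytes in the Pf4 difference was not tested. At 5 h Pf4 read 88.8, 96.7, 84.6 and 83.0 CPM in BMDM-WT and 45.6, 59.6, 61.7 and 69.0 CPM in BMDM-Nur77-KO, without overlap. The log2 fold change of −0.58 (SE 0.10, adjusted p = 1.4e-04 by edgeR) lay at the limit for a call, and it was −0.56 by DESeq2 and −0.48 without BMDM-Nur77-KO 5 h replicate 1. It also passed below the limit without BMDM-WT 5 h replicate 1 or 2.

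After 1 h of LPS 1 gene was called higher (Ccl28) and 4 lower (Ccl7, Ccl12, Cxcl1 and Pf4) in BMDM-Nur77-KO, against 1.51% and 1.36% of all tested genes. Cxcl1 read 394, 418, 355 and 420.0 CPM in BMDM-WT and 240.3, 215, 205 and 220.3 CPM in BMDM-Nur77-KO (log2 fold change −0.85, SE 0.18, adjusted p = 0.0029 by edgeR). Cxcl2 next to it was at 2054 ± 63.5 and 1882 ± 53.5 CPM and was not called (log2 fold change −0.13, SE 0.08, adjusted p = 0.46). Ccl7 was at 295 ± 13.6 and 182 ± 7.22 CPM (log2 fold change −0.69, SE 0.12, adjusted p = 1.9e-04 by edgeR). The 1 interaction called at 1 h was that of Cxcl10 (all tested genes 0.0443% higher). Its log2 change was 0.78 more in BMDM-Nur77-KO (SE 0.15, adjusted p = 0.035 by edgeR). Cxcl10 itself was still lower in the knockout at 1 h, at 94.5 to 119 CPM against 143 to 164 CPM in BMDM-WT, with no call. Of all tested genes, 9.31% were so separated lower at 1 h. Leaving out BMDM-Nur77-KO 0 h replicate 2 took the interaction to an adjusted p of 0.13. Leaving out BMDM-WT 1 h replicate 1 took the calls between genotypes at 1 h from 5 to 3, since Ccl12 and Pf4 then lay below the limit. Ccl12 also did so without BMDM-WT 1 h replicate 4 or BMDM-Nur77-KO 1 h replicate 4. Cxcl9 at 1 h read 7.25, 7.04, 6.56 and 6.57 CPM in BMDM-WT and 0.342, 0.602, 11.4 and 0.901 CPM in BMDM-Nur77-KO, and was not called. Without replicate 3, the library at 11.4 CPM, its log2 fold change was −3.43 and its adjusted p 1.0e-06 by edgeR.

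**Figure D2:**
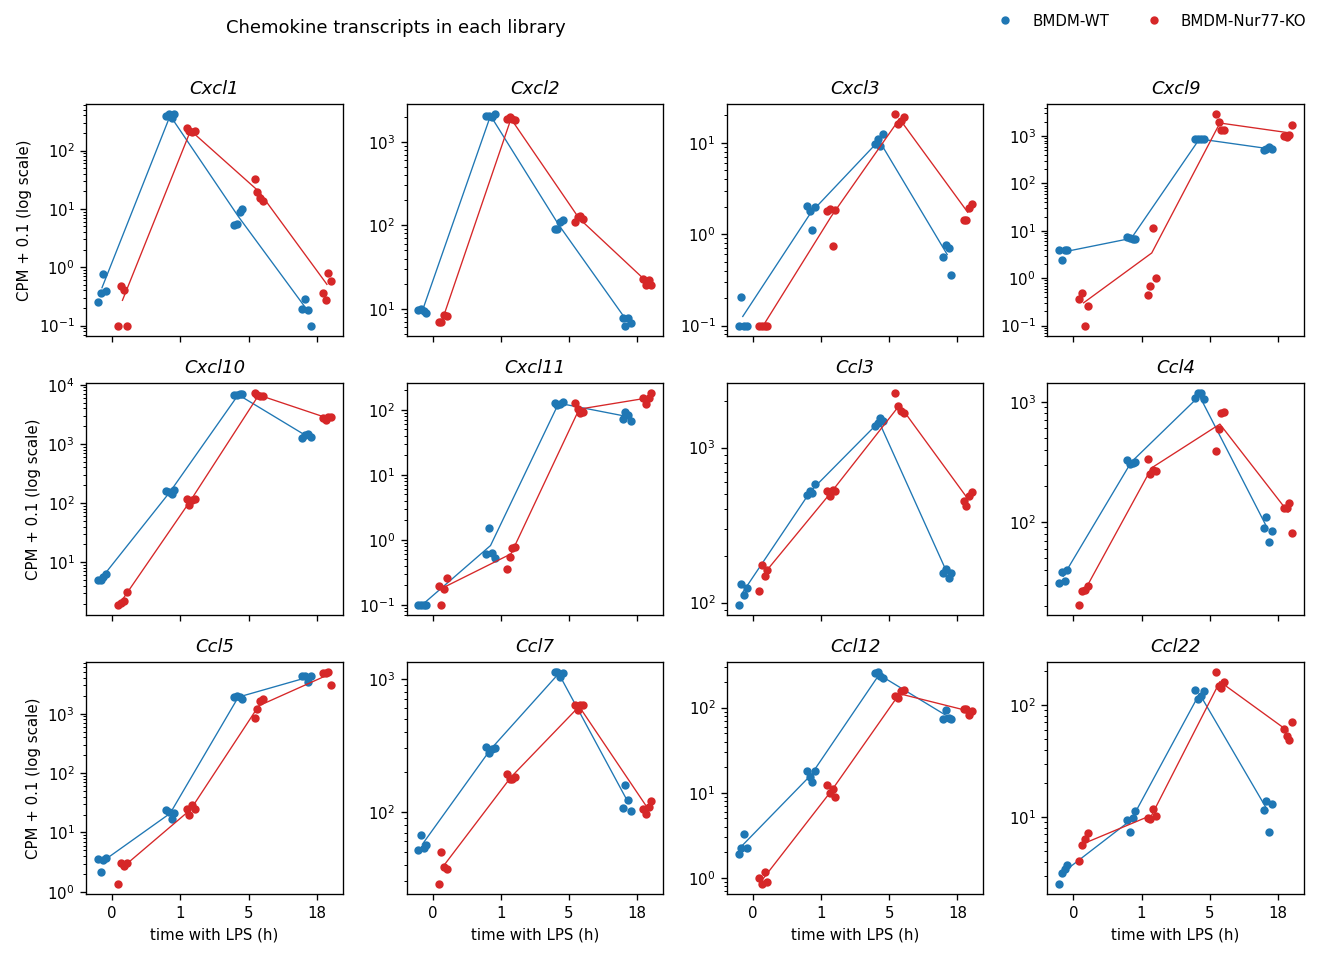
CPM + 0.1 on a log scale of 12 chemokine genes in each of the 32 libraries by time with LPS, with lines through the group means, BMDM-WT in blue and BMDM-Nur77-KO in red. Cxcl2, Cxcl3, Cxcl9, Cxcl10, Cxcl11, Ccl3 and Ccl22 are higher in every knockout library than in any wild-type library at 18 h, as are 10.8% of all tested genes. At 5 h Cxcl1, Cxcl3, Cxcl9, Ccl3 and Ccl22 are higher in every knockout library. Ccl4, Ccl7, Ccl12 and, only just, Ccl5 are lower in every knockout library at that time. Of all tested genes, 8.96% are so separated higher and 9.85% lower at 5 h.

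At 5 h chemokine genes differed in both directions. In BMDM-Nur77-KO 3 CXC genes were called higher (Cxcl1, Cxcl3 and Cxcl9) and 7 genes lower, namely Ccl4, Ccl7, Ccl8, Ccl12, Ccl24, Cx3cl1 and Pf4, where 5.61% of all tested genes were called higher and 3.13% lower. The median over the 24 genes was −0.03, and 0.02 over all tested genes. No CC chemokine was called higher at this time, and Pf4 was the one CXC chemokine called lower.

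The Ccl2 cluster was the group with the most genes lower at 5 h, 3 of its 4 tested genes. Ccl7 read 1118, 1120, 1026 and 1112 CPM in BMDM-WT and 633, 582, 633 and 631 CPM in BMDM-Nur77-KO (log2 fold change −0.82, SE 0.12, adjusted p = 1.0e-05 by edgeR). Ccl12 read 256, 260.1, 233 and 224 CPM against 137, 129, 156 and 160.2 CPM (log2 fold change −0.74, SE 0.11, adjusted p = 8.3e-06). The knockout libraries of both genes stood well below the lowest wild-type library and close to each other. Ccl8 read 64.9, 64.6, 59.7 and 55.1 CPM in BMDM-WT and 14.8, 24.2, 38.7 and 39.4 CPM in BMDM-Nur77-KO (log2 fold change −1.06, SE 0.20, adjusted p = 3.4e-04). Ccl2, the best known of the 4, was at 1058 ± 25.0 and 935 ± 57.0 CPM and was not called (log2 fold change −0.18, SE 0.12, adjusted p = 0.29). All 4 had no call at 18 h.

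Of the 3 tested neutrophil-attracting genes, Cxcl1 and Cxcl3 were called higher at 5 h, and Cxcl2, the most abundant, was at 101 ± 12.6 and 121 ± 9.03 CPM, below the limit for a call (log2 fold change 0.25, SE 0.08, adjusted p = 0.024 by edgeR). Cxcl1 at 5 h read 5.24, 5.39, 8.88 and 9.81 CPM in BMDM-WT and 31.9, 19.1, 15.2 and 13.4 CPM in BMDM-Nur77-KO (log2 fold change 1.43, SE 0.24, adjusted p = 6.7e-05 by edgeR). Cxcl1 was thus lower in every knockout library at 1 h and higher in every knockout library at 5 h (9.31% and 8.96% of all tested genes). Between 1 and 5 h it fell by 5.75 on the log2 scale in BMDM-WT and by 3.48 in BMDM-Nur77-KO. Cxcl3 at 5 h read 9.56, 10.9, 9.10 and 12.3 CPM in BMDM-WT and 20.4, 15.8, 17.4 and 18.9 CPM in BMDM-Nur77-KO (log2 fold change 0.79, SE 0.18, adjusted p = 0.0029 by edgeR).

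Cxcl9 had been lower in the knockout before LPS and was higher at 5 h. Its libraries read 858, 849.7, 884 and 881 CPM in BMDM-WT and 2894, 1985, 1344 and 1312 CPM in BMDM-Nur77-KO, so the groups did not overlap but the knockout libraries were spread widely. The log2 fold change of 1.12 (SE 0.36) had an adjusted p of 0.026 by edgeR and of 0.15 by DESeq2. Without BMDM-Nur77-KO 5 h replicate 1 the log2 fold change was 0.83 and the edgeR value 0.088, and the call was also lost, at 0.054 to 0.061, without BMDM-Nur77-KO 5 h replicate 2 or any of BMDM-WT 5 h replicates 1, 2 and 3. Cxcl10, its neighbour and the most abundant of the 3 CXCR3 ligands, did not differ detectably at 5 h, with 6777 ± 108 and 6702 ± 333 CPM (log2 fold change −0.02, SE 0.08, adjusted p = 0.90).

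Ccl4 at 5 h read 1074, 1173, 1179 and 1053 CPM in BMDM-WT and 389, 596, 805 and 819 CPM in BMDM-Nur77-KO (log2 fold change −0.78, SE 0.17, adjusted p = 0.0019 by edgeR). Its neighbour Ccl3 read 1385, 1440, 1561 and 1481 CPM against 2245, 1866, 1728 and 1675 CPM, higher in every knockout library, but its log2 fold change of 0.36 (SE 0.10, adjusted p = 0.013) was below the limit of 0.58. Ccl24, an eosinophil chemokine, read 10.2, 10.4, 9.43 and 7.09 CPM against 5.02, 5.96, 5.37 and 4.72 CPM (log2 fold change −0.82, SE 0.19, adjusted p = 0.0024). Cx3cl1, the membrane-anchored fractalkine, read 9.00, 11.5, 6.55 and 7.09 CPM in BMDM-WT and 1.31, 4.36, 4.79 and 4.13 CPM in BMDM-Nur77-KO (log2 fold change −1.20, SE 0.24, adjusted p = 5.9e-04). With the fit limited to the 8 libraries compared, the adjusted p of Ccl4, Ccl8 and Cx3cl1 rose to 0.080, 0.066 and 0.085 by edgeR, and none of these 3 was then called.

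**Figure D3:**
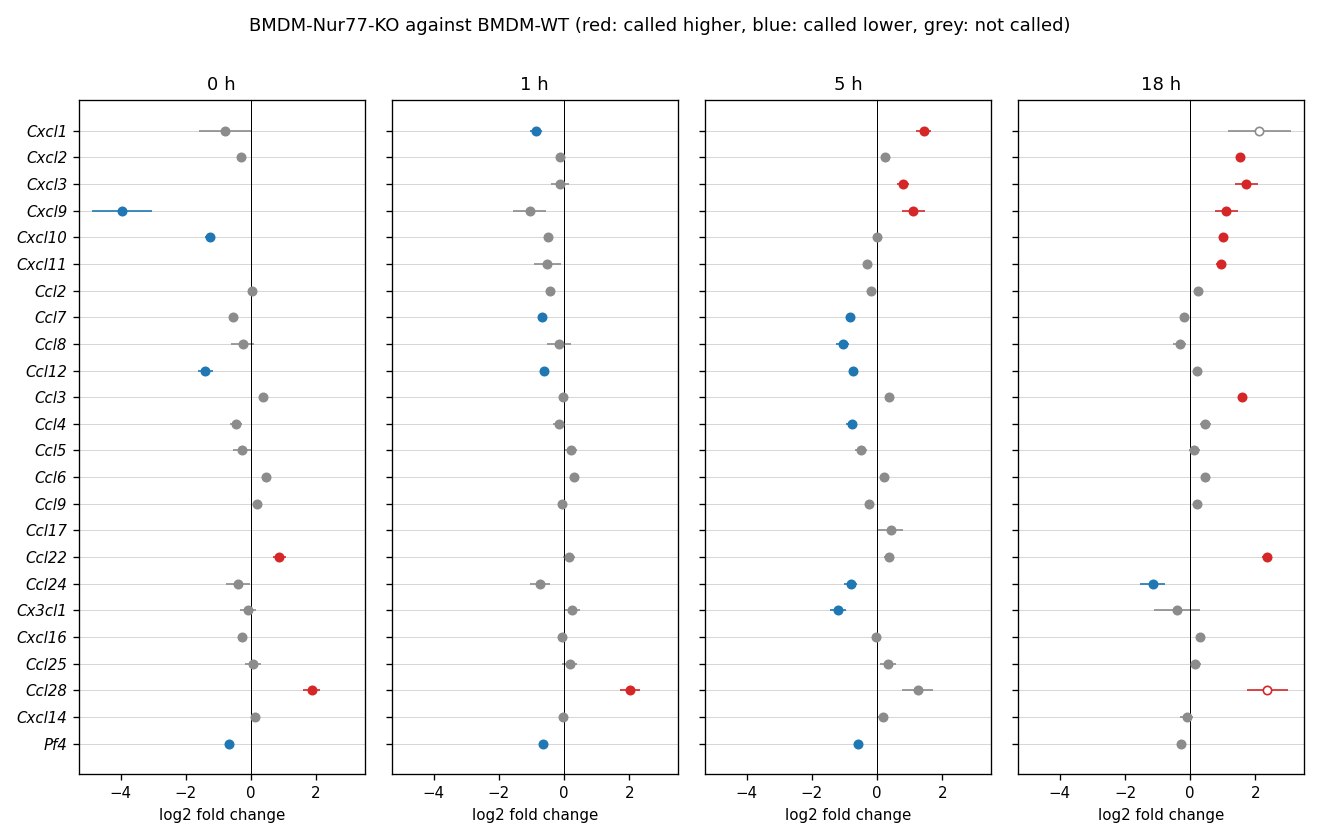
Log2 fold change of BMDM-Nur77-KO against BMDM-WT with its standard error for the tested chemokine genes at 0, 1, 5 and 18 h, in red where called higher, in blue where called lower and in grey otherwise. Open symbols are fitted values of genes with up to 3 counts in every library of one group, and genes at that floor in both groups are left out. The calls are 3 higher and 7 lower at 5 h, and 8 higher and 1 lower at 18 h.

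The knockout libraries of 5 h were spread widely in several genes. Replicate 1 had the highest Cxcl9 (2894 CPM), Cxcl1 (31.9 CPM) and Ccl3 (2245 CPM) of its group, and the lowest Ccl4 (389 CPM), Ccl5 (837 CPM), Ccl8 (14.8 CPM) and Cx3cl1 (1.31 CPM). Replicates 3 and 4 stood at the other end in Cxcl9, Cxcl1, Ccl4, Ccl5 and Ccl8, and replicate 2 stood between. The wild-type libraries of that time ranged only from 849.7 to 884 CPM in Cxcl9 and from 1795 to 2003 CPM in Ccl5. They were spread more widely in Cxcl1 (5.24 to 9.81 CPM) and Cx3cl1 (6.55 to 11.5 CPM). Without replicate 1, 8 genes were called at 5 h in place of 10, with Cxcl9 and Pf4 lost. At 18 h it was replicate 4 that had the highest Cxcl9 of the knockout libraries (1744 CPM, the others 946 to 1029 CPM) and the lowest Ccl5 (3043 CPM, the others 4814 to 4982 CPM), Ccl4 and Ccl8. Without it, 8 genes were called at 18 h in place of 9, with Cxcl9 and Ccl28 lost and Ccl4 gained (log2 fold change 0.62, adjusted p = 0.0093 by edgeR). What set these libraries apart was not tested.

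**Figure D4:**
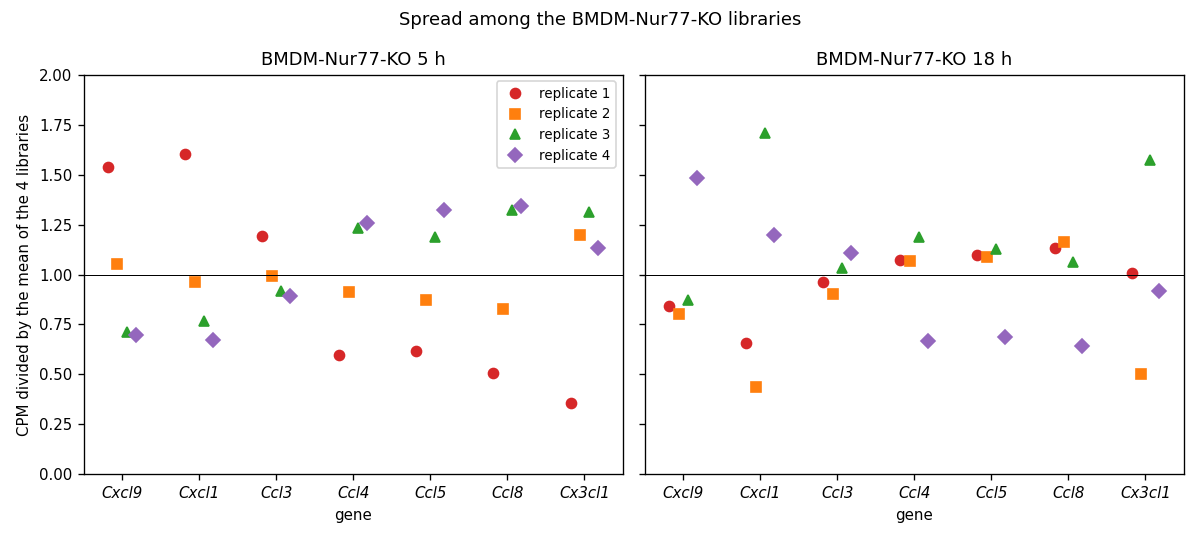
CPM of 7 chemokine genes in each BMDM-Nur77-KO library divided by the mean of its group of 4, at 5 h on the left and 18 h on the right. Replicate 1 is highest in Cxcl9, Cxcl1 and Ccl3 and lowest in Ccl4, Ccl5, Ccl8 and Cx3cl1 at 5 h, and replicate 4 is highest in Cxcl9 and lowest in Ccl4, Ccl5 and Ccl8 at 18 h.

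At 18 h the difference was nearly all in one direction. In BMDM-Nur77-KO 8 genes were called higher (Ccl3, Ccl22, Ccl28, Cxcl2, Cxcl3, Cxcl9, Cxcl10 and Cxcl11) and 1 lower (Ccl24), where 5.70% of all tested genes were called higher and 4.12% lower. The median over the 24 genes was 0.34, and 0.24 over those above the floor in both groups, against −0.01 over all tested genes. The CXCR3 ligand genes were called higher in 3 of 3, Cxcl11 among them under its non-coding identifier. The tested CXCR2 ligands were called higher in 2 of 3 and the tested genes of the Ccl2 cluster in 0 of 4.

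Ccl22, a ligand of CCR4 that attracts regulatory T cells and type 2 helper T cells, differed most among genes above the floor. It read 11.4, 13.7, 7.31 and 12.9 CPM in BMDM-WT and 60.7, 53.1, 48.9 and 70.5 CPM in BMDM-Nur77-KO (log2 fold change 2.36, SE 0.16, adjusted p = 1.9e-12 by edgeR). Every knockout library was far above the highest wild-type library. At 5 h the genotypes stood at 126 ± 10.9 and 161 ± 24.4 CPM, with no call, and Ccl22 then fell by 3.47 on the log2 scale in BMDM-WT and by 1.47 in BMDM-Nur77-KO. Ccl22 is also made by dendritic cells, and the 7 dendritic cell markers summed to 5.35 to 8.09 CPM in BMDM-WT and to 14.3 to 22.9 CPM in BMDM-Nur77-KO at 18 h. The sum itself changed with LPS in both genotypes. In BMDM-WT it was 1.53 to 1.87 CPM before LPS and 13.3 to 19.2 CPM at 5 h. In BMDM-Nur77-KO it was 1.55 to 2.68 CPM and 13.5 to 27.2 CPM. Of the 7 markers, Clec9a and Xcr1 were called higher in the knockout at 18 h. Cd209a was at 0 in both genotypes, Flt3 at 0 in the knockout and Siglech at 0 in BMDM-WT, and the last pair reached at most 1 count a library in the other genotype. The macrophage markers summed to 14055 to 14707 CPM in BMDM-WT and to 11065 to 12683 CPM in BMDM-Nur77-KO at 18 h, with Csf1r and Itgam called lower and Mertk higher, and the T and NK cell markers to 0.915 to 1.57 and 0.179 to 0.280 CPM. The part of cell composition in the 18 h differences was not tested. Ccl17, the other CCR4 ligand, had 0 to 2 counts a library at 18 h in either genotype.

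Ccl3, which is macrophage inflammatory protein 1 alpha, read 156, 165, 145 and 155 CPM at 18 h in BMDM-WT and 450.3, 422, 484 and 519 CPM in BMDM-Nur77-KO (log2 fold change 1.60, SE 0.11, adjusted p = 8.7e-13 by edgeR). In BMDM-WT its untreated level was 116 ± 15.6 CPM and the change to 18 h was not called, and in BMDM-Nur77-KO it was 3.10-fold above its untreated level. Its neighbour Ccl4 was at 87.8 ± 17.4 and 121 ± 27.5 CPM, with groups that overlapped and no call (log2 fold change 0.46, SE 0.18, adjusted p = 0.059). Ccl5, Ccl6 and Ccl9 were not called either. Ccl5 read 4236, 4264, 3355 and 4292 CPM in BMDM-WT and 4860, 4814, 4982 and 3043 CPM in BMDM-Nur77-KO, with overlap.

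Cxcl2 at 18 h read 7.69, 6.20, 7.74 and 6.73 CPM in BMDM-WT and 22.5, 19.4, 21.9 and 19.2 CPM in BMDM-Nur77-KO (log2 fold change 1.55, SE 0.10, adjusted p = 2.8e-13 by edgeR). The wild-type libraries were below their own untreated level of 9.39 ± 0.444 CPM and the knockout libraries above theirs of 7.57 ± 0.811 CPM. Cxcl3 read 0.458, 0.667, 0.609 and 0.259 CPM in BMDM-WT and 1.34, 1.34, 1.82 and 2.05 CPM in BMDM-Nur77-KO (log2 fold change 1.72, SE 0.35, adjusted p = 5.8e-04). Cxcl1 was nearly gone, with 0 to 2 counts a library in BMDM-WT and 2 to 10 in BMDM-Nur77-KO, and was not called (adjusted p = 0.12).

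Cxcl10, at 18 h, read 1282, 1408, 1443 and 1327 CPM in BMDM-WT and 2753, 2568, 2865 and 2829 CPM in BMDM-Nur77-KO (log2 fold change 1.01, SE 0.08, adjusted p = 7.6e-11 by edgeR). The order had thus changed, from lower in the knockout before LPS and, without a call, at 1 h, through no detectable difference at 5 h, to a level 2.02-fold higher. Cxcl11 read 72.3, 93.3, 83.4 and 67.9 CPM against 154, 124, 152 and 181 CPM (log2 fold change 0.95, SE 0.14, adjusted p = 8.6e-06). Cxcl9 read 514, 537, 599.7 and 527 CPM against 993, 946, 1029 and 1744 CPM, without overlap (log2 fold change 1.11, SE 0.36), and its adjusted p was 0.026 by edgeR and 0.19 by DESeq2. Without BMDM-Nur77-KO 18 h replicate 4 it was 0.098 by edgeR, and the call was also lost, at 0.059 to 0.068, without BMDM-WT 18 h replicate 1, 2 or 4.

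Ccl24 and Ccl28, the remaining calls at 18 h, rest on few counts. Ccl24 read 1.10, 0.667, 0.522 and 1.04 CPM in BMDM-WT and 0.358, 0.357, 0.351 and 0.409 CPM in BMDM-Nur77-KO, on 4 to 12 counts a library (log2 fold change −1.15, SE 0.38, adjusted p = 0.028 by edgeR, and 0.056 with the fit limited to the 8 libraries compared). Its call was also lost, at adjusted p of 0.051 to 0.10, without any of BMDM-Nur77-KO 18 h replicates 1, 2 and 3 or BMDM-WT 18 h replicates 1 and 4. Ccl28 had 0 to 2 counts in BMDM-WT and 2 to 12 in BMDM-Nur77-KO (adjusted p = 0.0058 by edgeR, and 0.066 in the limited fit). It was better covered before LPS, at 1.22, 0.727, 1.06 and 1.02 CPM in BMDM-WT and 3.01, 4.30, 3.22 and 3.82 CPM in BMDM-Nur77-KO (log2 fold change 1.86, SE 0.26, adjusted p = 7.9e-06 by edgeR). Every knockout library was higher before LPS, as in 10.1% of all tested genes.

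The change with LPS itself differed between genotypes for few chemokine genes at 5 h and for more at 18 h. At 5 h 3 interactions were called higher (Cxcl2, Cxcl9 and Cxcl10) and 1 lower (Ccl9), against 1.73% and 1.37% of all tested genes. At 18 h 8 were called higher and 0 lower, against 5.36% and 4.03% of all tested genes. These were Ccl3, Ccl4, Ccl12, Ccl22, Cxcl2, Cxcl9, Cxcl10 and Cxcl16. The median interaction at 18 h was 0.40 over the 24 genes and 0.02 over all tested genes.

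For Cxcl10, LPS gave a log2 change at 18 h of 7.98 in BMDM-WT and 10.26 in BMDM-Nur77-KO, a difference of 2.28 (SE 0.15, adjusted p = 8.2e-12 by edgeR). The knockout differed from wild type by −1.27 on the log2 scale at 0 h and by 1.01 at 18 h. For Cxcl2 the log2 changes were −0.41 and 1.45, a difference of 1.86 (SE 0.14, adjusted p = 6.7e-11), and for Ccl3 they were 0.41 and 1.63, a difference of 1.22 (SE 0.15, adjusted p = 8.9e-07). Cxcl16, the membrane-anchored ligand of CXCR6, was at 557 ± 36.8 and 692 ± 8.30 CPM at 18 h, with an interaction of 0.60 (SE 0.14, adjusted p = 0.0030). The interactions of Cxcl9, 5.08 at 5 h and 5.07 at 18 h, rest on the 0 to 6 counts of its untreated knockout libraries. That of Ccl4 at 18 h, 0.91 (SE 0.26, adjusted p = 0.018), had an adjusted p of 0.051 without BMDM-Nur77-KO 0 h replicate 1, and that of Cxcl2 at 5 h, 0.57 (SE 0.13, adjusted p = 0.0090), had 0.091 with the fit limited to the libraries compared.

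**Figure D5:**
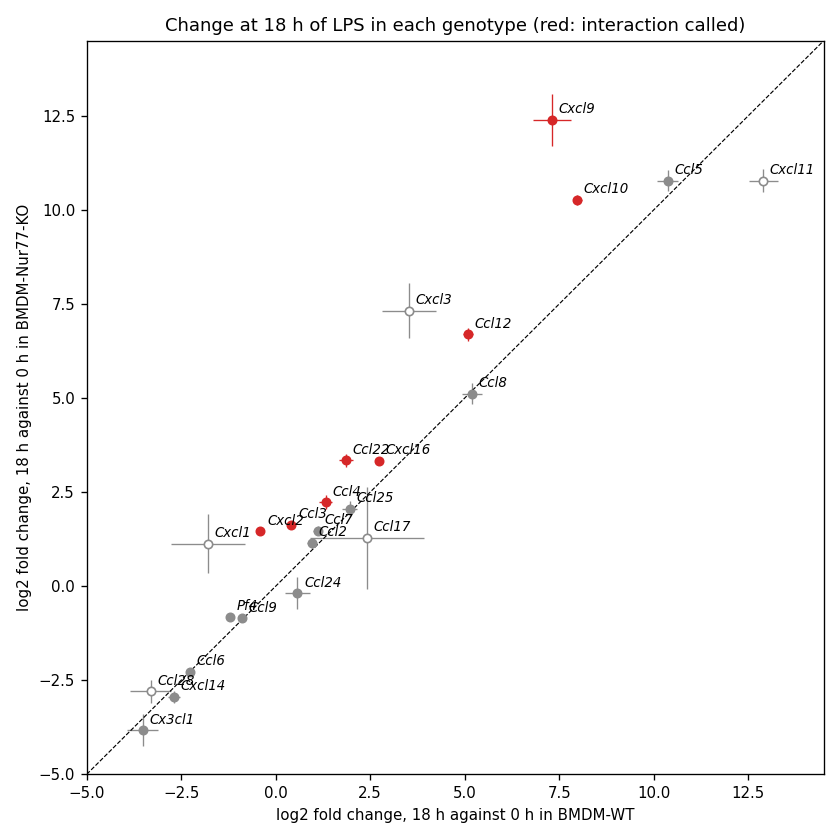
Log2 change between 0 and 18 h of LPS in BMDM-WT (x) and BMDM-Nur77-KO (y), with standard errors, for the 24 tested chemokine genes, in red where the interaction was called. Open symbols are fitted values of genes with up to 3 counts in every library of a group. All 8 red points lie above the dashed line of equal change.

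Calls differed among the genes of one chromosomal cluster. In the cluster of Ccl3 and Ccl4, Ccl3 was called higher at 18 h and Ccl4 lower at 5 h, whereas Ccl5, Ccl6 and Ccl9 had no call between genotypes at any time. Ccl6 was higher in every knockout library at 0, 1 and 18 h all the same, as were 10.1%, 10.1% and 10.8% of all tested genes. At 18 h it stood at 435 ± 17.0 against 315 ± 20.3 CPM, with a log2 fold change of 0.47 (SE 0.07, adjusted p = 1.0e-05 by edgeR) that lay below the limit. On chromosome 8, Ccl22 was higher at 18 h while Cx3cl1 was at 1 to 4 counts a library. Whether members of a cluster differed from each other in their response was not tested.

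The receptors of these ligands were sparser. Of 23 chemokine receptor genes 11 were tested. Before LPS 4 were called higher and 2 lower in BMDM-Nur77-KO (all tested genes 2.38% and 2.44%). Among them were Ccr1, Ccr2 and Ackr4, which were higher, and Cxcr3 and Cx3cr1, which were lower. At 1 h 1 was higher and 2 were lower (all tested genes 1.51% and 1.36%), at 5 h 0 were higher and 2 lower (5.61% and 3.13%), and at 18 h 4 were higher and 3 lower (5.70% and 4.12%). At 18 h Ccr7, Ccrl2, Cxcr3 and Xcr1 were higher and Ccr2, Ccr3 and Cxcr4 lower.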

How the data were processed

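Strand-specific mRNA libraries (KAPA mRNA HyperPrep, Illumina NovaSeq, paired-end) were aligned by the authors to mm10 with HISAT2 2.1.0 and filtered by mapping quality, and HOMER gave raw tags per RefSeq transcript. CASAVA 1.8.2 is named in the submitters' processing notes. The deposited values are expected counts in steps of 0.5 (28.6% not whole), with no normalization by the authors, and were rounded to whole counts here. Transcripts were named with RefSeq (42203) and GENCODE (65) tables for GRCm38. The 93 left unnamed held 0.233% to 1.37% of each library and stayed out. The transcript with the highest mean count stood for each gene.

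Counts were fitted in edgeR 4.0.16 (TMM, quasi-likelihood) as one model of 8 groups, in R 4.3.3, with limma 3.58.1 and DESeq2 1.42.0 for alternatives. SE is the log2 fold change divided by the root of F. The steps were tested on simulated data for 18 h. By adjusted p below 0.05 alone, 93 of 100 genes changed by 1 on the log2 scale and 83 of 100 changed by 0.7 were recovered. The simulated spread followed the trend over all genes, so genes more variable than the trend can be recovered less often. The 6 false calls were counted among the unchanged ones of the 11279 genes. They needed the limit of 0.58 as well, so recovery and false calls rest on different rules. Promoters came from RefSeq. Gene lists, members, named genes and alternatives were chosen with earlier results of these data known. All chemokine genes were accounted for, and values in every library are given for genes called between genotypes at 5 or 18 h with groups that do not overlap, and for the 3 highest in RPKM. The totals of 8742362 to 15780926 counts limit the precision of genes with few counts. Alternatives were DESeq2, its size factors, another filter (12215 genes), fits to the libraries compared, a replicate block, summed transcripts (10763 genes), other fold limits and each library left out. Some receptor and marker genes are not reported here.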

Additional observations from a re-analysis of the deposited data

Results flagged for a closer look

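In 15 of 180 groups of 4 libraries checked (24 genes in 8 groups, without those at the floor), 1 library stood far from the other 3 by Dixon's criterion, where chance flags about 1 in 20. Cxcl9 held 3 of them, namely 11.4 CPM in BMDM-Nur77-KO 1 h replicate 3 (the others 0.342 to 0.901 CPM), 1744 CPM in BMDM-Nur77-KO 18 h replicate 4 (946 to 1029 CPM) and 2.28 CPM in BMDM-WT 0 h replicate 2 (3.81 to 3.93 CPM). Ccl5 also held 3, with 3043 CPM in BMDM-Nur77-KO 18 h replicate 4 (4814 to 4982 CPM), 3355 CPM in BMDM-WT 18 h replicate 3 (4236 to 4292 CPM) and 2.02 CPM in BMDM-WT 0 h replicate 2 (3.33 to 3.55 CPM). Ccl7 stood at 582 CPM in BMDM-Nur77-KO 5 h replicate 2 and at 1026 CPM in BMDM-WT 5 h replicate 3, both the lowest of their group. Ccl2 stood at 800.1 CPM in BMDM-WT 1 h replicate 4, Ccl12 at 94.1 CPM in BMDM-WT 18 h replicate 2, Cxcl11 at 1.41 CPM in BMDM-WT 1 h replicate 2 and Cxcl14, an epithelial and stromal chemokine, at 7.80 CPM in BMDM-WT 5 h replicate 4, each the highest of its group. Among the knockout libraries, Ccl3 stood at 484 CPM in 1 h replicate 2 and Cxcl3 at 0.638 CPM in 1 h replicate 3, both the lowest, and Ccl24 at 0.409 CPM in 18 h replicate 4, the highest. BMDM-WT 0 h replicate 2, BMDM-Nur77-KO 1 h replicate 3 and BMDM-Nur77-KO 18 h replicate 4 occur more than once.

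The change with LPS differed between the genotypes, by the interaction test of edgeR with Benjamini-Hochberg adjustment, in 13 cases. At 1 h this was Cxcl10, with a log2 difference of 0.78. At 5 h these were Cxcl10 (1.26), Cxcl2 (0.57), Cxcl9 (5.08) and Ccl9 (−0.41). At 18 h these were Cxcl10 (2.28), Cxcl2 (1.86), Cxcl9 (5.07), Ccl12 (1.60), Ccl22 (1.49), Ccl3 (1.22), Ccl4 (0.91) and Cxcl16 (0.60). In Ccl12 and Cxcl10 the knockout was lower before LPS, and Ccl12 did not differ at 18 h (log2 fold change 0.21, adjusted p = 0.17).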

How the results depend on the processing

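For single genes, 659 of 703 alternative values kept their direction and their call, 44 kept the direction and lost the call, and 0 reversed. Apart from single libraries left out, the counts of calls that moved by more than 1.5 times were those between genotypes under another fold limit. Without a limit, 11 genes were called at 0 h and 8 at 1 h, and with a limit of 1 on the log2 scale 1 was called at 1 h and 4 at 5 h. With each library left out in turn, the calls between genotypes ranged from 6 to 7 at 0 h, from 3 (without BMDM-WT 1 h replicate 1) to 6 at 1 h, from 8 to 12 at 5 h and from 7 to 9 at 18 h, and the interactions from 0 to 1 at 1 h, from 4 to 5 at 5 h and from 7 to 9 at 18 h. The single interaction at 1 h was lost in 10 of 16 such fits. The fit with the replicate number as a block called 6, 5, 9 and 9 genes between genotypes at 0, 1, 5 and 18 h and lost Pf4 at 5 h alone. Whether the numbers pair the samples is not known. Within each time, same-numbered libraries of the genotypes deviated together (a correlation over 0.1) in 7 of 16 pairs, with correlations from −0.37 to 0.25. Groups of 4 libraries are too small for these values to decide it, and pairing across times was not checked. DESeq2 lost Cxcl9 at 5 and 18 h and Pf4 at 5 h. Depth limits Ccl17, Ccl24, Ccl28, Cxcl1 at 18 h and the untreated levels of Cxcl3, Cxcl9 and Cxcl11.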
